A study of Mus musculus with 15 samples.

Results

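The 5 genes described here encode the core of the pathway through which leukemia inhibitory factor (LIF) acts on mouse embryonic stem cells: the receptor subunits Lifr and Il6st, the kinase Jak1, the transcription factor Stat3 and the inhibitor Socs3. They were taken by symbol from tables of 24819 genes, and all 5 were found in the tables and passed the filter on low values. The cells were of the mouse embryonic stem cell line E14, kept on gelatin in serum with 1000 U/mL of LIF. Every group, controls included, received LIF and an siRNA delivered with DharmaFECT: siNT, the non-targeting control, or siRpl11, siRpl14, siRpl18 or siRpl23, named for the targeted gene of a large ribosomal subunit protein. The titles state 48 h of knockdown and the protocol states harvest after 3 days, and the sources do not settle which applies. There were 5 groups of 3 libraries of polyadenylated RNA. No label states separate cultures, so the p-values reflect only the spread between libraries, which may be technical.

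LIF binds a receptor made of Lifr and gp130, the product of Il6st, and gp130 is also the shared signalling subunit of the other receptors of the interleukin-6 family. Janus kinases bound to the receptor, Jak1 among them, phosphorylate it and then Stat3, which dimerises, enters the nucleus and activates transcription. Socs3 is a direct target of Stat3 whose product binds gp130 and Janus kinases and dampens the signal. In mouse embryonic stem cells grown in serum, this pathway sustains self-renewal. RNA levels, the quantity measured here, do not show phosphorylation or protein.

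The promoter windows of Stat3 and Il6st are shown because these genes moved in opposite directions in the knockdowns and their windows hold no annotated exon base. Each holds the 250 bases before the RefSeq transcription start (assembly GRCm38.p6), read 5′ to 3′ on the gene's strand. Capitals mark matches to TTNNNNNAA, a loose form of the element that STAT dimers bind. The stricter form is TTCNNNGAA, and every match to it is also a match to the loose form. Both read the same on either strand.
Stat3, chr11:100939541-100939790, minus strand: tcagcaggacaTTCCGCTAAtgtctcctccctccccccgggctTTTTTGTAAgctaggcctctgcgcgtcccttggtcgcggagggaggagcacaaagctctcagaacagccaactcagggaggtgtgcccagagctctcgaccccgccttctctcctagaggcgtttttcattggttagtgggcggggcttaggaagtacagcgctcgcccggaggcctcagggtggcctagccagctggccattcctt
Il6st, chr13:112463820-112464069, plus strand: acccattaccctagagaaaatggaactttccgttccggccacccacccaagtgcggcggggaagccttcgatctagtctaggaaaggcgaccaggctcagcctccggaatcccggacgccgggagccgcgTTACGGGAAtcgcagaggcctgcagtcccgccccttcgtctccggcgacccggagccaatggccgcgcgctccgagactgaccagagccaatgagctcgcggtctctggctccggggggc
The Stat3 window held TTCCGCTAA, beginning 239 bases before the start, and TTTTTGTAA, beginning 207 bases before it. The Il6st window held TTACGGGAA, beginning 120 bases before the start. TTNNNNNAA occurred in 55.2% of 32851 RefSeq promoter windows of this length, and TTCNNNGAA in 7.02%, but not in either window shown. These matches describe the letters only and are not evidence of binding.

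Replicates 1 and 2 of each group were deposited in a first table and the third library of each group in a second, normalized separately. Tests were therefore made within the first table (10 libraries, 2 per group), and the third libraries are given beside them as a difference from their own siNT library. The absolute depth is unknown from FPKM. Relative depth was estimated from the most frequent ratio to the first library of each table, among genes at 0.005 to 0.15 FPKM. It ranged from 0.697 to 1.40 in the first table and from 1.00 to 1.29 in the second. The ratios counted as most frequent covered only 3.34 to 13.3% of the genes compared, so these depths are rough. The targeted genes stood at 24.0% (Rpl11), 51.6% (Rpl14), 32.6% (Rpl18) and 36.3% (Rpl23) of siNT in their own knockdowns, and at 19.9 to 38.5% in the third libraries. All 10 embryonic stem cell markers were detected, with a summed level of 8180 to 8570 FPKM in siNT and 5509 to 7168 FPKM in the knockdowns of the first table. Of 10 fibroblast markers, 5 were below 0.1 FPKM in both libraries of every group, as were Ptprc, Csf1r and Adgre1 among 5 macrophage markers in the table. The summed fibroblast markers were 17.9 to 18.6 FPKM in siNT and 8.34 to 14.6 FPKM in the knockdowns. The summed macrophage markers, mostly Cd68, were 15.4 to 15.9 FPKM in siNT and 15.8 to 28.7 FPKM in the knockdowns. The part of these shifts in the results below was not tested, and in bulk RNA fewer expressing cells and less RNA per cell cannot be told apart.

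In the first table Stat3 was higher and Il6st, Jak1 and Socs3 were lower in every knockdown than in siNT, while Lifr differed little. FPKM is scaled by transcript length, so levels can be set side by side between genes. In siNT, Socs3 was the most abundant (107 ± 1.76 FPKM, SD, n = 2), followed by Stat3 (27.7 ± 0.804), Il6st (19.7 ± 0.367), Lifr (14.5 ± 0.337) and Jak1 (12.1 ± 1.03), and no neighbours in this order overlapped. With a threshold of 0.05 on limma's Benjamini-Hochberg adjusted p over 12249 genes, siRpl11 changed 4 of 5 members, 1 upward and 3 downward, where 70.9% of all genes were called (27.3% higher, 43.6% lower). siRpl14 changed all 5, 1 upward and 4 downward (62.8% of all genes, 33.3% higher and 29.5% lower). siRpl18 changed 4, 1 upward and 3 downward (67.6% of all genes, 32.8% higher and 34.7% lower), and siRpl23 changed 4, 1 upward and 3 downward (65.7% of all genes, 34.9% higher and 30.8% lower). Most genes were called in each comparison, so the number of members called is near the background, and the results are given below by their sizes. The 4 comparisons share the siNT libraries and are not independent of each other.

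**Figure D1:**
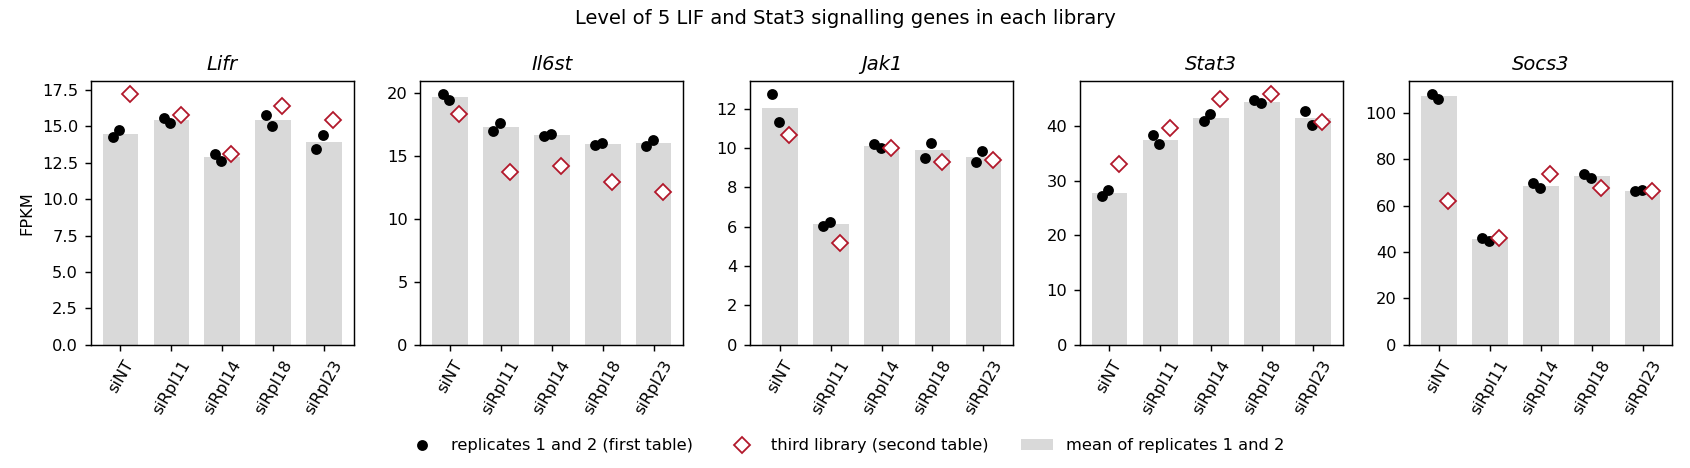
FPKM (linear vertical axis from 0) of Lifr, Il6st, Jak1, Stat3 and Socs3 in siNT and the 4 knockdowns: bars are the mean of replicates 1 and 2, black points those replicates and open red diamonds the third library of the separately normalized second table. Within its own panel, the siNT bar is the highest for Il6st, Jak1 and Socs3 and the lowest for Stat3. The siRpl11 bar stands apart for Jak1 at 6.13 FPKM, and the Socs3 diamond of siNT (62.2 FPKM) lies well below its points (108 and 106 FPKM).

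With log2(FPKM + 1) as the scale of every fold change, those of weakly expressed genes are understated. The median of all tested genes was -0.11 in siRpl11, 0.02 in siRpl14, -0.02 in siRpl18 and 0.02 in siRpl23. For siRpl11 it became 0.04 when libraries were scaled by median ratios and 0.01 after quantile normalization. The share of called genes that were higher in siRpl11 was 38.5% as deposited, 54.7% with median-ratio scaling and 50.9% with quantile normalization, so small differences of siRpl11 depend on the scaling.

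Lifr, the LIF-binding subunit, measured 14.3 and 14.7 FPKM in siNT. It measured 15.6 and 15.2 FPKM in siRpl11 and 15.8 and 15.0 FPKM in siRpl18, both just above siNT. In siRpl14 the levels were 13.1 and 12.6 FPKM, below both siNT libraries, and in siRpl23 they were 13.4 and 14.4 FPKM, overlapping the range of siNT at its lower end. The log2 fold change was 0.08 ± 0.05 (SE, limma adjusted p = 0.199) in siRpl11, with a 95% interval of -0.04 to 0.20. It was 0.08 (adjusted p = 0.2002, interval -0.04 to 0.20) in siRpl18 and -0.06 (adjusted p = 0.378, interval -0.18 to 0.06) in siRpl23. Only in siRpl14 was Lifr called, having fallen by 0.16 on the log2 scale (adjusted p = 0.0256). With siNT replicate 2 left out the value was -0.14 (adjusted p = 0.111), with siRpl14 replicate 2 left out it was -0.13 (adjusted p = 0.129), and a fit of only these groups gave adjusted p = 0.0551, so the call was lost each time. The siRpl14 call stood under median-ratio scaling (-0.17, limma adjusted p = 0.0229) and quantile normalization (-0.23, adjusted p = 0.00522). Median-ratio scaling also called Lifr higher in siRpl11 (0.26, adjusted p = 0.00240). Quantile normalization added calls in siRpl11 (0.15, adjusted p = 0.0341) and siRpl23 (-0.14, adjusted p = 0.0472). In the third libraries Lifr was 17.3 FPKM in siNT and 15.8, 13.1, 16.4 and 15.5 FPKM in siRpl11, siRpl14, siRpl18 and siRpl23. All 4 were below siNT there, and siRpl14 was again the lowest.

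Il6st encodes gp130 and was the receptor gene that fell in all 4 knockdowns, in siRpl11 only with FPKM as deposited. It measured 19.9 and 19.4 FPKM in siNT, 17.0 and 17.6 FPKM in siRpl11, 16.6 and 16.7 FPKM in siRpl14, 15.8 and 16.0 FPKM in siRpl18 and 15.8 and 16.3 FPKM in siRpl23. Every knockdown library lay below both siNT libraries. As a share of siNT the levels were 87.9%, 84.5%, 80.9% and 81.3%. The log2 fold changes were -0.18 in siRpl11 (SE 0.05, limma adjusted p = 0.00564), -0.23 in siRpl14 (0.00147), -0.29 in siRpl18 (0.000291) and -0.28 in siRpl23 (0.000366). The siRpl11 call was lost under quantile normalization (-0.11, adjusted p = 0.0724) and median-ratio scaling (adjusted p = 0.973, with a fold change of -0.00195), whereas those of the other knockdowns stood under both. The third libraries gave 18.3 FPKM in siNT and 13.7, 14.2, 12.9 and 12.1 FPKM in siRpl11, siRpl14, siRpl18 and siRpl23, or 66.2 to 77.3% of siNT. These are wider gaps than in the first table, but the test of the difference between tables reached no adjusted p below 0.0522.

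Jak1 fell in all 4 knockdowns and by far the most in siRpl11. It measured 12.8 and 11.3 FPKM in siNT and 6.03 and 6.24 FPKM in siRpl11, so that both siRpl11 libraries were far below every other library of the first table. The other knockdowns lay between, at 10.23 and 9.9998 FPKM in siRpl14, 9.52 and 10.3 FPKM in siRpl18 and 9.28 and 9.84 FPKM in siRpl23, all below siNT. In siRpl11 the level was 50.9% of siNT (log2 fold change -0.87 ± 0.07, limma adjusted p = 2.2e-06). In siRpl14, siRpl18 and siRpl23 it was 84.0%, 82.1% and 79.3% of siNT, with log2 fold changes of -0.23, -0.26 and -0.30 (limma adjusted p = 0.0146, 0.00706 and 0.00299). Without siNT replicate 1, the higher control library, the calls in siRpl14 (-0.15, adjusted p = 0.118) and siRpl18 (-0.18, adjusted p = 0.0629) were lost. Leaving out siRpl14 replicate 2 also ended the siRpl14 call (-0.21, adjusted p = 0.0682), and leaving out siRpl18 replicate 1 ended the siRpl18 call (-0.21, adjusted p = 0.0557).

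The siRpl11 effect on Jak1 recurred in the third libraries, where siNT had 10.7 FPKM and siRpl11 5.18 FPKM, or 48.6% of siNT. siRpl14, siRpl18 and siRpl23 had 10.01, 9.31 and 9.37 FPKM there, closer to siNT (87.3 to 93.8%) than in the first table.

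Stat3 rose in all 4 knockdowns. It measured 27.2 and 28.3 FPKM in siNT, 38.4 and 36.7 FPKM in siRpl11, 40.9 and 42.2 FPKM in siRpl14, 44.7 and 44.2 FPKM in siRpl18 and 42.7 and 40.2 FPKM in siRpl23. Every knockdown library exceeded both siNT libraries by a wide margin. The levels were 135%, 150%, 160% and 150% of siNT, and the log2 fold changes 0.42, 0.57, 0.66 and 0.56 (SE 0.05 each; limma adjusted p = 2.04e-05, 3.73e-06, 9.76e-07 and 3.29e-06). The third libraries gave 33.1 FPKM in siNT and 39.6, 44.9, 45.9 and 40.7 FPKM in the same order of knockdowns, or 120 to 139% of siNT. Stat3 was thus higher than siNT in 12 of 12 knockdown libraries, each set against the controls of its own table, and siRpl18 was highest in both tables.

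Socs3, the feedback inhibitor, showed the largest fall of the members in the first table and the poorest match between tables. It measured 108 and 106 FPKM in siNT, 46.2 and 44.6 FPKM in siRpl11, 69.8 and 67.5 FPKM in siRpl14, 73.6 and 71.7 FPKM in siRpl18 and 66.2 and 66.7 FPKM in siRpl23. No knockdown library came near siNT, and siRpl11 was the lowest. These levels were 42.4%, 64.1%, 67.9% and 62.1% of siNT. The log2 fold change was -1.22 ± 0.04 in siRpl11 (limma adjusted p = 1.23e-08), -0.63 in siRpl14 (5.52e-07), -0.55 in siRpl18 (1.08e-06) and -0.68 in siRpl23 (2.88e-07).

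In the second table, Socs3 was 62.2 FPKM in siNT, 46.0 FPKM in siRpl11, 73.7 FPKM in siRpl14, 67.4 FPKM in siRpl18 and 66.3 FPKM in siRpl23. There siRpl11 stayed below siNT (74.0% of it), but the other 3 knockdowns were above it, at 119%, 109% and 107%. The knockdown libraries of the 2 tables had much the same FPKM, whereas the siNT library of the second table was far below the siNT libraries of the first, although levels set across separately normalized tables carry that caveat. The difference in effect between tables was 0.79, 0.88, 0.67 and 0.77 on the log2 scale for siRpl11, siRpl14, siRpl18 and siRpl23 (SE 0.07 each; limma adjusted p = 0.000768, 0.00021, 0.00149 and 0.000557). This test was chosen after the values were seen, and called 5.74%, 9.23%, 7.83% and 12% of all genes in the same order. No other member was called in it. When all 15 libraries were fitted together with the table as a term, Socs3 was -0.96 in siRpl11 (limma adjusted p = 1.84e-05) and -0.34, -0.33 and -0.42 in siRpl14, siRpl18 and siRpl23 (adjusted p = 0.0359, 0.0398 and 0.0120). Set against the siNT library of the second table alone, none of those 3 knockdowns had a lower Socs3 level.

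**Figure D2:**
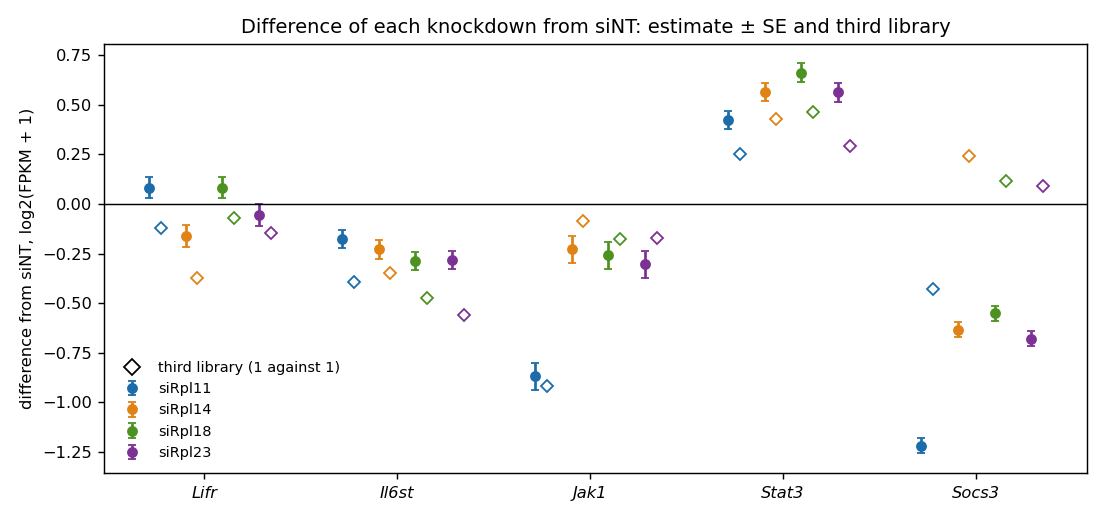
Log2 fold change of FPKM + 1 of each member in each knockdown against siNT: filled points with bars are the limma estimate ± SE from the first table and open diamonds the difference in the second table. The Il6st, Jak1 and Stat3 estimates and diamonds lie on the same side of 0 in all 4 knockdowns, whereas for Socs3 only the siRpl11 diamond (-0.43) lies below 0.

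Differences between knockdowns do not involve siNT. Of 30 such differences (5 members, 6 pairs of knockdowns), 11 were called, 10 of them between siRpl11 and another knockdown. siRpl11 differed from siRpl14, siRpl18 and siRpl23 in 59.2%, 53.4% and 55.4% of all genes, while siRpl14 differed from siRpl18 in 14.3%, siRpl18 from siRpl23 in 3.51% and siRpl14 from siRpl23 in 0.514%. Jak1 was lower in siRpl11 than in siRpl14 (-0.64, limma adjusted p = 3.09e-05), siRpl18 (-0.61, 4.74e-05) and siRpl23 (-0.57, 7.72e-05), with -0.83, -0.74 and -0.75 in the third libraries. Socs3 was lower in siRpl11 than in siRpl14 (-0.59, limma adjusted p = 1.32e-06), siRpl18 (-0.67, 5.55e-07) and siRpl23 (-0.54, 2.21e-06). The third libraries gave -0.67, -0.54 and -0.52 for Socs3, close to these sizes. All 6 of these differences were called under both other scalings, but smaller: for Jak1 they were -0.40, -0.41 and -0.33 after quantile normalization, and for Socs3 -0.39, -0.51 and -0.35 with median-ratio scaling.

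Stat3 rose less in siRpl11 than in siRpl14 (-0.14, limma adjusted p = 0.0232), siRpl18 (-0.24, 0.00167) and siRpl23 (-0.14, 0.0274), but these calls depended on the scaling. Under median-ratio scaling the differences were 0.05, -0.09 and 0.05 (adjusted p = 0.346, 0.123 and 0.333). The calls against siRpl14 and siRpl23 also ended without siRpl11 replicate 2 (-0.11 for each; adjusted p = 0.147 and 0.165) and, respectively, in fits lacking siRpl14 replicate 2 (-0.12, adjusted p = 0.118) or siRpl23 replicate 1 (-0.10, adjusted p = 0.185). Lifr was lower in siRpl14 than in siRpl11 (0.24 as siRpl11 minus siRpl14, limma adjusted p = 0.00336) and siRpl18 (-0.24, adjusted p = 0.0178). The second of these was lost in fits lacking siRpl14 replicate 1 (adjusted p = 0.0543), siRpl14 replicate 2 (0.103) or siRpl18 replicate 1 (0.0996). For Il6st no pair was called with FPKM as deposited, and the differences ran from -0.01 to 0.11. Under other scalings Il6st was called higher in siRpl11 than in siRpl14, siRpl18 and siRpl23, by 0.24, 0.26 and 0.29 with median-ratio scaling (limma adjusted p = 0.00136, 0.000911 and 0.000440) and by 0.20, 0.23 and 0.26 after quantile normalization (0.00645, 0.00273 and 0.00157). Lifr, siRpl11 minus siRpl23, was not called as deposited (0.14, limma adjusted p = 0.0521) but was with these scalings (0.32, 0.000842; 0.29, 0.00185). Among siRpl14, siRpl18 and siRpl23, no difference of Il6st, Jak1, Stat3 or Socs3 was called with FPKM as deposited. The 95% intervals of Jak1 there ran from -0.12 to 0.18, -0.08 to 0.23 and -0.11 to 0.20, which leaves room for a small difference. Socs3, siRpl18 minus siRpl23, was called with median-ratio scaling (0.17, limma adjusted p = 0.0484) but not after quantile normalization (0.14, adjusted p = 0.111).

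Genes whose profile over the 8 knockdown libraries of the first table lay closest to a member were picked by the root mean square difference of log2(FPKM + 1) less the siNT mean. For Jak1 these were Pgls (0.0394), Rasa3 (0.0474) and Rab31 (0.0560), among 43 genes within 0.1. Of the 3, Rab31 was lower than siNT in all 4 knockdowns of the second table, as Jak1 was. For Stat3 they were Ints3 (0.0412), Kin (0.0615) and 2310011J03Rik (0.0618), among 66 genes within 0.1, and all 3 were above siNT in all 4 knockdowns of the second table. For Socs3 they were Esrrb (0.0494), a transcription factor of the naive state, Tfeb (0.0628) and Galnt2 (0.0645), among 14 genes within 0.1. These 3 were lower than siNT in all 4 knockdowns of the second table (Esrrb at -1.03, -0.48, -0.30 and -0.37), unlike Socs3.

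The pathway beyond these members was followed with a list of 44 genes: other ligands and receptors of the interleukin-6 family, Janus kinases, STATs, SOCS genes, other negative regulators and adaptors. Of these, 36 passed the filter on low values, and 8 did not: the ligands Il6, Il11, Osm, Clcf1 and Il27, the receptors Osmr and Il11ra2, and the adaptor Gab2. Ctf2 was among those that passed only through the knockdowns. In siRpl11, 10 were higher, 19 lower and 7 not called, with a median log2 fold change of -0.21 against -0.11 over all genes. The counts were 12 higher and 12 lower in siRpl14 (median 0.01), 8 and 13 in siRpl18 (median -0.05) and 11 and 14 in siRpl23 (median 0.01), where the medians of all genes were 0.02, -0.02 and 0.02. Of all genes, 27.3% were higher and 43.6% lower in siRpl11, and 33.3% and 29.5% in siRpl14. In siRpl18 they were 32.8% and 34.7%, and in siRpl23 34.9% and 30.8%. Of the called genes on this list, 34.5%, 50%, 38.1% and 44% were higher in siRpl11, siRpl14, siRpl18 and siRpl23. Among all called genes these shares were 38.5%, 53.0%, 48.6% and 53.1%. Whether the list departs from this background was not tested.

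Lif itself, the ligand that the medium also supplied, rose in all 4 knockdowns. It measured 1.51 and 1.46 FPKM in siNT, 3.80 and 3.66 FPKM in siRpl11, 4.72 and 4.54 FPKM in siRpl14, 5.30 and 5.22 FPKM in siRpl18 and 6.05 and 6.14 FPKM in siRpl23. The groups did not overlap, and the level in siRpl23 was 411% of siNT. The log2 fold changes were 0.93, 1.18, 1.33 and 1.51 (limma adjusted p = 8.93e-07, 2.24e-07, 7.76e-08 and 3.73e-08), and 1.22, 1.48, 1.82 and 1.84 in the third libraries. The rise of Lif in siRpl18 was larger in the second table (0.48, limma adjusted p = 0.0334), and the other knockdowns were not called in that test. Among receptors, Cntfr, which binds ciliary neurotrophic factor, rose in siRpl11. It measured 6.45 and 6.01 FPKM in siNT, 18.7 and 17.8 FPKM in siRpl11 and 4.89 to 6.78 FPKM in the other knockdowns (log2 fold change 1.41 in siRpl11, limma adjusted p = 1.12e-06). siRpl11 exceeded siRpl14, siRpl18 and siRpl23 by 1.54, 1.38 and 1.42 for Cntfr (adjusted p = 1.16e-06, 2.4e-06 and 1.88e-06). The third library of siRpl11 had 18.8 FPKM against 8.52 FPKM in siNT.

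The other Janus kinases, Jak2, Jak3 and Tyk2, were all lower in siRpl11, by less than Jak1. Their log2 fold changes there were -0.35, -0.49 and -0.42 (limma adjusted p = 0.00483, 0.00392 and 0.000281), but Jak2 lost its call after quantile normalization (-0.08, adjusted p = 0.439). As a share of siNT the levels were 59.4%, 69.1% and 71.3%, beside 50.9% for Jak1. Jak2 was weakly expressed (1.04 and 1.24 FPKM in siNT), so its fold change on this scale is understated. In the other knockdowns only Jak3 in siRpl14 was called (0.37, adjusted p = 0.0213), and not without siNT replicate 2 (0.28, adjusted p = 0.137) or siRpl14 replicate 1 (0.24, adjusted p = 0.160).

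Among other STATs, Stat2, Stat5a, Stat5b and Stat6 fell in all 4 knockdowns, where Stat3 rose. Stat2, a factor of the type I interferon response, measured 10.1 and 8.65 FPKM in siNT and 3.28 and 2.72 FPKM in siRpl11. Its log2 fold changes were -1.37, -0.85, -1.09 and -1.01 in siRpl11, siRpl14, siRpl18 and siRpl23 (largest limma adjusted p = 1.97e-05). Stat6, the STAT of interleukin-4 signalling, changed by -0.98, -0.60, -0.78 and -0.59. Stat5b changed by -1.46, -0.71, -0.76 and -0.71 and Stat5a by -0.77, -0.74, -0.54 and -0.47, but these near-identical copies may share reads and are uncertain one by one. Stat5a was also weakly expressed, so its fold changes on this scale are understated. It measured 1.86 and 1.60 FPKM in siNT and 0.58 and 0.62 FPKM in siRpl11, or 34.8% of siNT, where Stat6 was at 47.4%. Stat4 was higher in siRpl11 (0.68), siRpl14 (0.42) and siRpl23 (0.22), the last of these not without siNT replicate 2 (0.15, adjusted p = 0.168) or siRpl23 replicate 1 (0.17, adjusted p = 0.159).

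The SOCS family did not move as a unit with Socs3. Socs7 was lower in all 4 knockdowns (-0.73, -0.50, -0.55 and -0.56), whereas Socs5 was higher in siRpl14, siRpl18 and siRpl23 (1.04, 0.94 and 0.81). Socs5 measured 2.86 and 3.22 FPKM in siNT and 7.56 and 7.03 FPKM in siRpl14, with no overlap. In siRpl11 Socs5 was called at 0.23, but not without siNT replicate 1 (0.16, adjusted p = 0.136) or siRpl11 replicate 2 (0.17, adjusted p = 0.139). Socs1 was lower in siRpl11 (-0.74) and siRpl23 (-0.43), the latter not when all 15 libraries were fitted (-0.22, adjusted p = 0.277). In the third libraries Socs1 differed from siNT by -0.90, 0.72, -0.19 and 0.21 in siRpl11, siRpl14, siRpl18 and siRpl23, so siRpl23 was above siNT there. Cish was lower in siRpl11 (-0.66) and Socs2 in siRpl14, siRpl18 and siRpl23 (-0.33, -0.25 and -0.26). Socs4 was called higher in siRpl11 (0.33), but not without siNT replicate 2 (0.19, adjusted p = 0.148) or siRpl11 replicate 1 (0.25, adjusted p = 0.110). Socs6 was not called in any knockdown. Of the other negative regulators, Ptpn6, the phosphatase SHP-1, fell in all 4 (-0.88, -0.44, -0.86 and -0.70), from 15.0 and 14.1 FPKM in siNT to 6.96 and 7.96 FPKM in siRpl11.

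**Figure D3:**
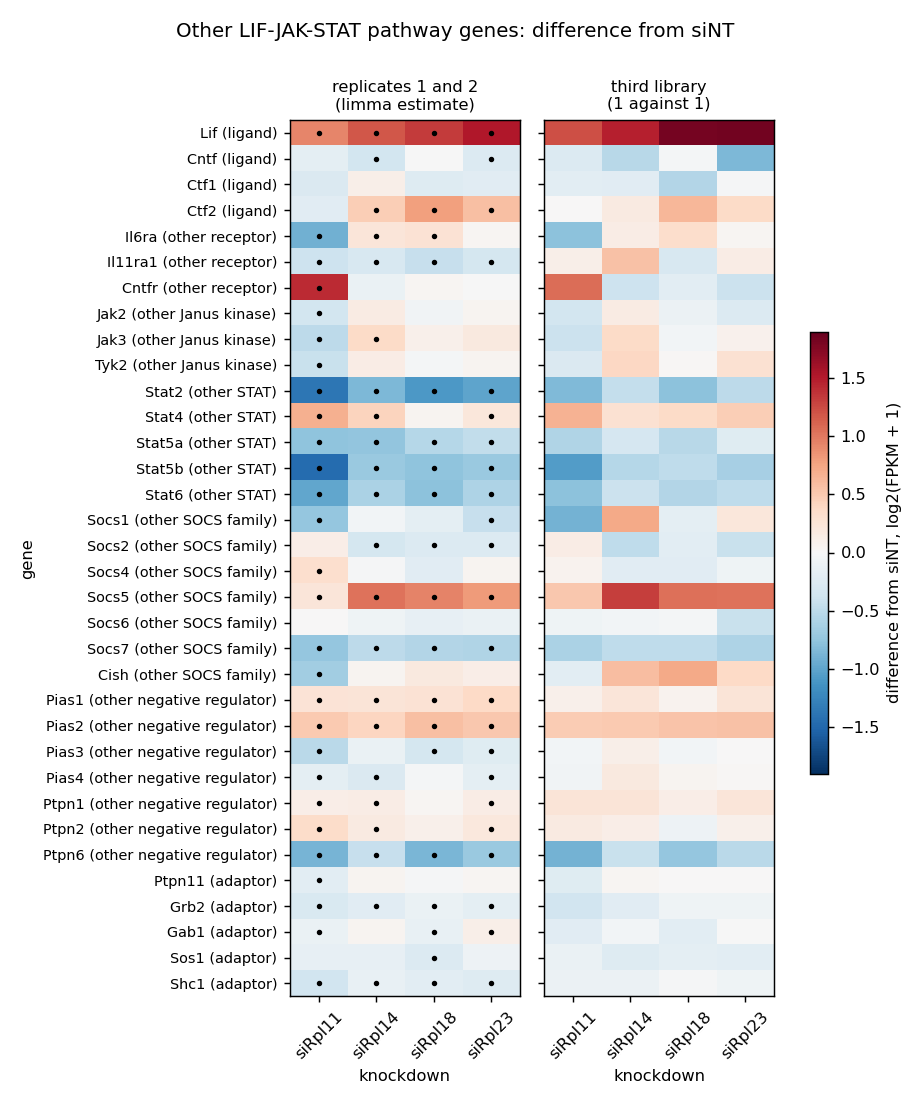
Colour shows the log2 fold change of FPKM + 1 against siNT of tested pathway genes, ordered by role, on a scale cut at plus and minus 1.9: left, limma estimates from the first table with a dot where the adjusted p is under 0.05; right, the difference in the second table. Lif is positive in all 8 columns (0.93 to 1.84), Cntfr is strongly positive in siRpl11 in both panels (1.41 and 1.06), and Stat2 and Stat6 are negative throughout.

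Genes known as Stat3 targets in mouse embryonic stem cells were followed with a list of 19, of which 18 passed the filter (Bcl6 did not). In siRpl11, 12 were lower and 3 higher, with a median of -0.70 against -0.11 over all genes, of which 43.6% were lower and 27.3% higher. In siRpl14, 11 were lower and 6 higher (median -0.38), beside 29.5% and 33.3% of all genes. In siRpl18 9 were lower and 6 higher (median -0.21), beside 34.7% and 32.8%, and in siRpl23 also 9 and 6 (median -0.22), beside 30.8% and 34.9%. The share of targets that were higher was thus near the background in siRpl14, siRpl18 and siRpl23. With all 15 libraries fitted, the siRpl18 count was 6 lower and 6 higher. Of the genes that were lower, 11, 10, 7 and 8 were also below siNT in the third libraries of siRpl11, siRpl14, siRpl18 and siRpl23. The effect differed between tables for 5, 6, 6 and 7 of the 18 genes, against the shares of all genes given above for that test. Socs3 and Stat3 are themselves Stat3 targets and are not counted in the list.

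Tfcp2l1, a transcription factor of naive pluripotency downstream of Stat3, fell most in siRpl11. It measured 90.0 and 82.4 FPKM in siNT and 25.5 and 24.9 FPKM in siRpl11 (log2 fold change -1.73, limma adjusted p = 2.59e-08), with 80.6 and 29.6 FPKM in the third libraries. In siRpl18 it was -1.22 (adjusted p = 1.53e-07) in the first table and -0.77 in the second, and the effect differed between tables (0.46, limma adjusted p = 0.0390). Klf4 and Klf5, factors of the same network that are named here after their values were seen, were lower in all 4 knockdowns of the first table. For Klf4, siNT had 80.3 and 70.2 FPKM and siRpl11 had 38.0 and 36.7 FPKM. For Klf5, siNT had 159 and 148 FPKM and siRpl11 had 59.8 and 59.2 FPKM. In both, the effect differed between tables in all 4 knockdowns, and the third libraries of siNT (64.2 and 131 FPKM) lay below the first 2, as for Socs3. In the second table Klf4 was above siNT in siRpl18 (83.9 FPKM) and level with it in siRpl23 (64.1 FPKM). Ier3, an immediate early gene, changed by -1.67, -1.26, -1.16 and -1.36 in siRpl11, siRpl14, siRpl18 and siRpl23. Bcl3 was lower in all 4 knockdowns, by -0.97 in siRpl14 and -0.96 in siRpl23 on the log2 scale. The fall was largest in siRpl11, from -1.52 to -1.37 with each library left out, and ran from -1.08 to -0.90 in siRpl18.

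Other listed targets rose. Rgs16, a regulator of G protein signalling, measured 1.43 and 1.76 FPKM in siNT and 7.12 and 7.16 FPKM in siRpl18, and its log2 fold changes were 0.93, 1.24, 1.65 and 1.52 (largest limma adjusted p = 3.99e-05). Fos rose in siRpl14, siRpl18 (0.98) and siRpl23 (0.95), and Cebpd rose in all 4 knockdowns, with 0.63 in siRpl11 and 0.93 in siRpl14. The differences of Cebpd in the third libraries were -0.01 in siRpl11 and 0.63 in siRpl14, and the first of these departed from the first table (-0.64, limma adjusted p = 0.0260), as did siRpl18 (-0.62, adjusted p = 0.0252). The rise of Fos in siRpl14 differed between tables too (0.57, adjusted p = 0.0431). Junb, which was chosen for its values, separated siRpl11 from the other knockdowns by sign. It measured 33.1 and 31.2 FPKM in siNT, 16.4 and 16.3 FPKM in siRpl11, 43.4 and 41.3 FPKM in siRpl14, 54.0 and 55.5 FPKM in siRpl18 and 50.5 and 46.6 FPKM in siRpl23. No groups overlapped, and the third libraries had the same order around siNT (35.4 FPKM in siNT, 20.0 FPKM in siRpl11 and 68.2 to 74.2 FPKM in the others), with a larger rise than in the first table in siRpl14 (0.54, limma adjusted p = 0.00771) and siRpl23 (0.47, adjusted p = 0.0119). The siRpl11 level of Junb was lower than that of siRpl14, siRpl18 and siRpl23 by a log2 difference of -1.32, -1.68 and -1.51 (largest limma adjusted p = 5.41e-08).

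**Figure D4:**
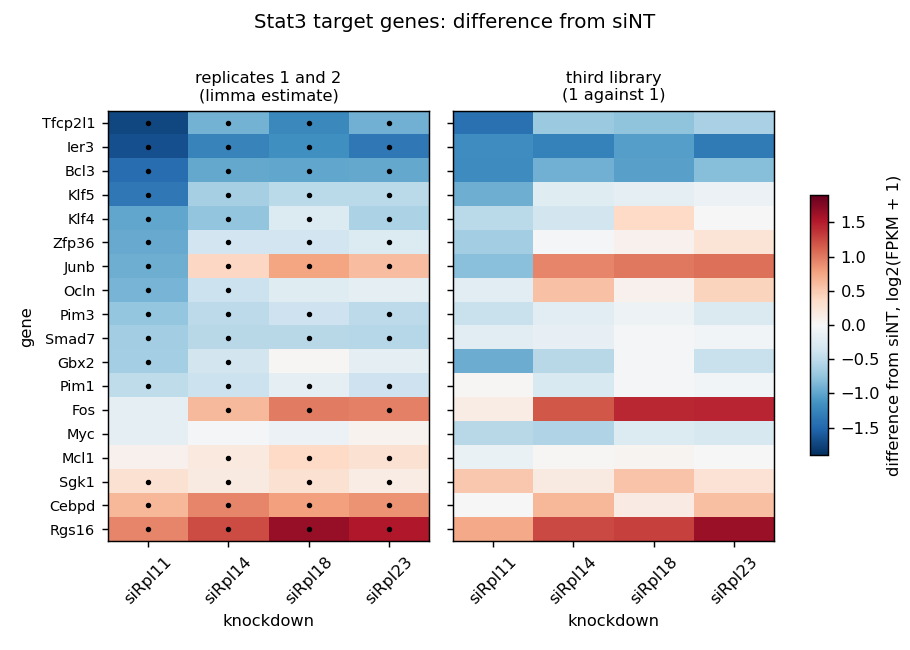
Colour shows the log2 fold change of FPKM + 1 against siNT of the 18 tested Stat3 target genes, on a scale cut at plus and minus 1.9: left, limma estimates from the first table with a dot where the adjusted p is under 0.05; right, the difference in the second table. Tfcp2l1 and Ier3 are negative in all 8 columns, Rgs16 is positive in all 8, and Junb is negative in siRpl11 (-0.93 and -0.79) and positive in the other 3 knockdowns.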

How the data were processed

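The authors deposited gene-level FPKM. The submitters' processing notes name STAR, Cuffnorm and the mouse build mm9, and versions, settings and the annotation were not given in the sources used here. Both tables hold 24819 genes, and 2 columns of the first match no sample of the series and were not used. Any rescaling between libraries within Cuffnorm would hide a shift common to most transcripts.

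From these values, limma 3.58.1 (R 4.3.3, eBayes with trend) fitted log2(FPKM + 1) with 1 term per group over the 10 libraries of the first table. It covered the 12249 genes that reached 1 FPKM in 2 or more of them. p-values were Benjamini-Hochberg adjusted over all these genes, and genes under 0.05 were called. The procedure was tested on simulated data. Libraries were grouped by title in the first table and by the siRNA label in the second. The libraries of the second table were kept out of that fit. Same-numbered libraries were checked for pairing, and the fit has no replicate block. The test between tables, a fit over all 15 libraries with 1 term per group and table, was added after seeing the data. Each group has 1 library in the second table, so for every gene its spread comes from the first table alone. Libraries of the second table are assumed to vary likewise.

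All members are described. Of the lists, named genes are the 2 with the largest rise and fall per knockdown and every Janus kinase, STAT and SOCS gene that passed the filter; others are marked as chosen later. Some genes of the lists are counted but not reported here by name. The members, lists and tests were chosen with earlier results of these data known. Alternatives were a pseudocount of 0.1, no filter, quantile normalization, median-ratio scaling, all 15 libraries, a replicate block, only the groups compared, and leaving out each library. Promoter sequences are from RefSeq (GRCm38.p6), another build than mm9, so no gene coordinates are given for the expression values. Protein sequences were not used here.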

Additional observations from a re-analysis of the deposited data

Results flagged for a closer look

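For Socs3, the effect of each knockdown differed between the tables by the test of that difference. The second table minus the first came to 0.79 for siRpl11, 0.88 for siRpl14, 0.67 for siRpl18 and 0.77 for siRpl23 on the log2 scale (limma adjusted p from 0.00021 to 0.00149). The 4 values share the same siNT libraries and so are not independent of each other. The siNT library of the second table had 62.2 FPKM of Socs3 and those of the first had 108 and 106 FPKM. The cause was not tested.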

How the results depend on the processing

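Against siNT, 328 of the values recomputed for the members kept their direction and side of the threshold, 9 lost a call and 3 gained one. Lifr moved to 0.153 (siRpl11) and -0.142 (siRpl23) and Il6st to -0.106 (siRpl11) with quantile normalization. Median-ratio scaling gave Lifr 0.256 and Il6st -0.00195 in siRpl11, and fitting only the groups compared gave Lifr -0.160 in siRpl14. Leaving out each library gave -0.187 to -0.134 for Lifr in siRpl14, -0.310 to -0.149 for Jak1 in siRpl14 and -0.340 to -0.179 for Jak1 in siRpl18. Between knockdowns, 17 values out of 510 changed sign, and of the rest 12 lost a call and 14 gained one. Some of the values that changed sign also lost or gained a call. Lifr, siRpl11 minus siRpl18, became 0.118 (quantile), 0.147 (median-ratio) and -0.0346 to 0.0336 (each library left out). Il6st, siRpl18 minus siRpl23, became 0.0251, 0.0313 and -0.0268 to 0.0134, and 0.0235 with all 15 libraries. Jak1, siRpl14 minus siRpl18, became -0.0104, -0.00747 and -0.0193 to 0.0799, and siRpl18 minus siRpl23 ran from -0.00489 to 0.0944 without a library. Stat3, siRpl11 minus siRpl14 and minus siRpl23, became 0.0505 and 0.0527 (median-ratio), and siRpl14 minus siRpl23 ran from -0.0394 to 0.0459 without a library. The cause of these shifts was not tested. With 1 library left in a group, that library is assumed to vary like the other groups. Counts of called genes stayed within 7688 to 9605, 6730 to 8534, 7438 to 9302 and 7045 to 8962 for siRpl11, siRpl14, siRpl18 and siRpl23.

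The numbers do not pair the samples (correlations of deviations from -0.0858 to 0.195). The replicate block left every call of a member against siNT as it was, and added Lifr siRpl11 minus siRpl23 (0.139, adjusted p = 0.0446), Il6st siRpl11 minus siRpl18 (0.112, adjusted p = 0.0416) and Socs3 siRpl18 minus siRpl23 (0.127, adjusted p = 0.0380). Absolute depth is unknown, and each group rests on 2 libraries in the first table.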
